A study of Mus musculus with 18 samples.

Results

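The Id gene family of the mouse has 4 members, Id1, Id2, Id3 and Id4. All 4 were found among the 38355 genes counted in each library by matching their symbols to Ensembl identifiers, and all 4 passed the filter on low counts, as did 16236 genes in all. Each library was made from cortex dissected from mouse embryos of the C57BL/6 strain at E12.5 (age in embryonic days). There were 4 wild-type (WT) libraries, 5 from the Dmrt3 knockout (KO), 4 from the Dmrt5 KO and 5 from the Dmrt3;Dmrt5 KO, which lacks both genes and is called the double KO here. Dmrt3 and Dmrt5 encode transcription factors of the doublesex and mab-3 related family, and the transcript of Dmrt5 is listed under its current symbol, Dmrta2. The labels give no age difference, treatment or further allele for any group, and they do not describe how the alleles were made. They also do not say that the libraries of a genotype came from separate embryos, so p-values measure the spread between these libraries, which may be technical.

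Id proteins carry a helix-loop-helix domain but lack the basic region with which related factors hold DNA. They bind E proteins, the common partners of the basic helix-loop-helix (bHLH) factors, and the resulting pairs do not bind DNA, so proneural factors are left with fewer partners. Id genes are known as direct targets of bone morphogenetic protein (Bmp) signalling through Smad proteins, and in the embryonic forebrain they are associated with dividing progenitors; Id1 and Id3 are also known from blood vessels. The comparisons below ask how the 4 transcripts change when Dmrt3, Dmrt5 or both are lost.

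The family shares one region, the helix-loop-helix, and a stretch of 120 coding bases that lies in it is shown because it is what makes these genes a family and because related sequence is where reads could be assigned to the wrong member. An in-frame search without gaps found the 120-base window with the highest summed identity between the 4 coding sequences. Each stretch lies within exon 1 of the first listed GENCODE transcript (release M21, GRCm38, the assembly of mm10) and is written 5′ to 3′ on the coding strand, with capitals marking the 69 bases that are the same in all 4 genes.
Id1: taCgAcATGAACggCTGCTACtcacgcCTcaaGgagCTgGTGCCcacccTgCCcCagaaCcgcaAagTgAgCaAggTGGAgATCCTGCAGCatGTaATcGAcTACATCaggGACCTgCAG
Id2: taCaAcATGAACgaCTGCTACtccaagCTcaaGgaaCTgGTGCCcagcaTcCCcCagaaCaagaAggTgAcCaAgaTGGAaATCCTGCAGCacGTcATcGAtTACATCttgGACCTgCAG
Id3: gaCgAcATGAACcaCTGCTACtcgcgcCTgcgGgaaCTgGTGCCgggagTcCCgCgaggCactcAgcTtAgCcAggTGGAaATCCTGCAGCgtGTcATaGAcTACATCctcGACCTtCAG
Id4: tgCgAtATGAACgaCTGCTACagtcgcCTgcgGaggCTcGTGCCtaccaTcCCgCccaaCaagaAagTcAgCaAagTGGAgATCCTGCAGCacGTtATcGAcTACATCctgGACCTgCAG
The stretch of Id1 is at chr2:152736518-152736637 on the plus strand, that of Id2 at chr12:25095783-25095902 on the minus strand, that of Id3 at chr4:136144002-136144121 on the plus strand and that of Id4 at chr13:48261693-48261812 on the plus strand. Identity between pairs ran from 70.8%, for Id1 with Id3 and for Id3 with Id4, to 81.7% for Id1 with Id2. The longest run of bases shared exactly by the transcripts of any pair was 19 bases, between Id2 and Id3, and the shortest such maximum was 11 bases, between Id1 and Id2.

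The genes lie on 4 different chromosomes in GRCm38. Id1 (ENSMUSG00000042745) spans chr2:152736251-152737410 on the plus strand, with 1160 bases of merged exons. Id2 (ENSMUSG00000020644) spans chr12:25093799-25097140 on the minus strand, with 2438 exonic bases. Id3 (ENSMUSG00000007872) spans chr4:136143497-136145755 on the plus strand, with 1791 exonic bases. Id4 (ENSMUSG00000021379) spans chr13:48261228-48266026 on the plus strand, with 3849 exonic bases. The median of the tested genes was 4151 exonic bases, so all 4 were shorter than the median gene and Id1 stood at the 8.37th percentile of length. Id4 shares 82 exonic bases with the antisense gene A330033J07Rik, and the library kit named in the labels does not mark strand, so reads over those bases cannot be assigned to one of them. A330033J07Rik had from 31 to 458 counts per library, against 3960 to 14265 for Id4. Gm49291, another minus-strand gene, shares 171 exonic bases with Id4. It is not among the genes counted, so its reads over those bases cannot be told from those of Id4.

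Library totals ran from 19602718 to 33072896 counts over genes. The targeted genes went with the labels: Dmrt3 averaged 56.9 CPM (counts scaled to a common library total) in WT, 0.308 in the Dmrt3 KO, 41.5 in the Dmrt5 KO and 0.157 in the double KO. Dmrta2 averaged 194 CPM in WT, 219 in the Dmrt3 KO, 10.7 in the Dmrt5 KO and 3.55 in the double KO, with Dmrt5 KO replicate 1 at 25.1. The labelled tissue was checked against 9 pallial progenitor markers (among them Emx1, Emx2, Pax6 and Lhx2), whose summed level ran from 2945 to 3317 CPM in WT and from 2102 to 2847 in the double KO. Against WT, edgeR called 5 of the 9 lower and 1 higher in the double KO, beside 3.81% and 2.42% of all tested genes. Emx1, a defining factor of the cortex, went from 153 ± 32.5 CPM (SD, n = 4) to 8.51 ± 2.86 (SD, n = 5). Pax6 went the other way, from 176 ± 20.8 CPM (SD, n = 4) to 319 ± 78.7 (SD, n = 5). The sum also holds genes that progenitors of other regions express, such as Nes, which ran from 985 to 1108 CPM in WT and from 825 to 1338 in the double KO. The 14 subpallium markers summed to 870.0 to 1242 CPM in WT and 1852 to 3622 in the double KO. The libraries differed in how their levels depend on transcript length. That is given here as a length slope, the slope across genes of a library's deviation in log2 CPM from the mean of all libraries on log2 exon length; short transcripts such as that of Id1 read high in a library with a negative slope. It was lowest in WT replicate 2 (-0.196) and highest in double KO replicate 5 (0.326), and the other WT libraries had 0.0964, -0.0630 and 0.243. Several results that rest on these libraries are given with and without them, and the others only with them.

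Id4 was the most abundant member and the one whose level differed most regularly between genotypes. In WT its normalised read count was 402, 444, 440 and 413 CPM in replicates 1 to 4, a mean of 425 ± 20.5 (SD, n = 4). In the Dmrt3 KO it was 356, 337, 396, 410 and 363 CPM, a mean of 372 ± 29.9 (SD, n = 5). The upper end of the Dmrt3 KO libraries reached into the WT range, so the groups overlap. In the Dmrt5 KO it was 294, 340, 295 and 304 CPM in replicates 1, 2, 4 and 5, a mean of 308 ± 21.5 (SD, n = 4). The double KO libraries had 194, 233, 238, 251 and 244 CPM, a mean of 232 ± 22.4 (SD, n = 5). Every Dmrt5 KO library was below every WT library, and every double KO library was below every library of the other 3 genotypes. The order of the means was WT, Dmrt3 KO, Dmrt5 KO, double KO, and the neighbouring ranges of WT with Dmrt3 KO and of Dmrt3 KO with Dmrt5 KO overlap.

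Id3, the second member by level, varied most between libraries. Its WT values were 54.6, 222, 103 and 62.0 CPM, a mean of 111 ± 77.6 (SD, n = 4), and replicate 2 alone was above 200. Its Dmrt3 KO values were 131, 119, 133, 83.2 and 127 CPM, a mean of 119 ± 20.5 (SD, n = 5), with replicate 4 below the others. These lie inside the spread of WT. In the Dmrt5 KO the values were 86.6, 59.2, 84.6 and 53.5 CPM, a mean of 71.0 ± 17 (SD, n = 4). The double KO values were 40.9, 30.4, 49.9, 64.2 and 14.6 CPM, a mean of 40.0 ± 18.9 (SD, n = 5). All 5 double KO libraries were below all 5 Dmrt3 KO libraries, while double KO replicate 4 was above the lowest 2 WT libraries and the lowest 2 Dmrt5 KO libraries.

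Id1 had the same kind of spread at a lower level. Its WT values were 22.9, 64.9, 38.4 and 20.8 CPM, a mean of 36.8 ± 20.3 (SD, n = 4), with replicate 2 again the highest. Its Dmrt3 KO values were 52.7, 38.9, 44.4, 27.1 and 47.8 CPM, a mean of 42.2 ± 9.85 (SD, n = 5). The lowest Dmrt3 KO library was again replicate 4. In the Dmrt5 KO the values were 34.6, 26.2, 26.1 and 20.6 CPM, a mean of 26.9 ± 5.75 (SD, n = 4). For the double KO they were 27.4, 19.7, 29.3, 22 and 9.36 CPM, a mean of 21.5 ± 7.84 (SD, n = 5). Every pair of genotypes that was compared overlapped for Id1, and double KO replicate 5 stood lowest of the 18 libraries for Id1, Id2 and Id3.

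Id2 moved over a narrow range. Its WT values were 46.9, 58.0, 47.1 and 43.6 CPM, a mean of 48.9 ± 6.28 (SD, n = 4). Its Dmrt3 KO values were 54.4, 64.7, 58.9, 52.3 and 65.8 CPM, a mean of 59.2 ± 6.02 (SD, n = 5). WT replicate 2 lay inside the Dmrt3 KO range and the other 3 WT libraries below it. The Dmrt5 KO values were 46.7, 48.5, 51.3 and 49.6 CPM, a mean of 49.0 ± 1.95 (SD, n = 4), close together and inside the WT range. The double KO values were 36.2, 32.7, 44.6, 54.8 and 28.7 CPM, a mean of 39.4 ± 10.4 (SD, n = 5), and replicate 4 was the only one of these above the lowest Dmrt3 KO library.

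**Figure D1:**
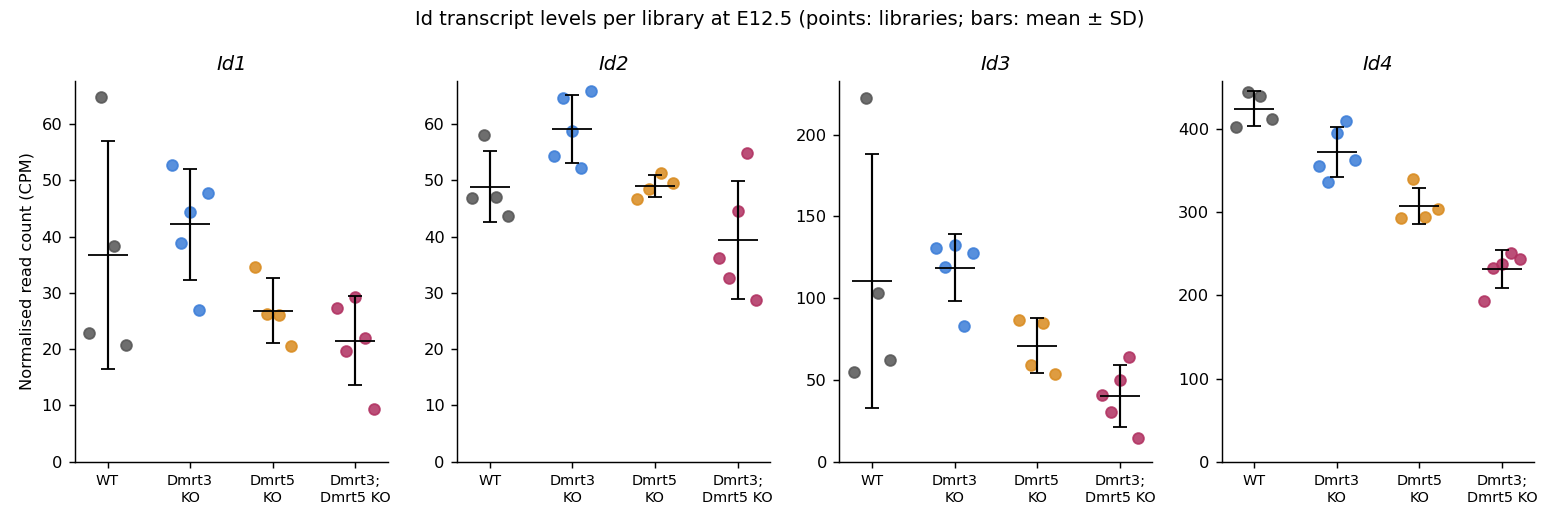
Normalised read counts (CPM, linear axis from 0) of Id1, Id2, Id3 and Id4 in each library, grouped by genotype; points are libraries, and bars are the mean and SD. Id4 steps down from 402 to 444 CPM in WT to 194 to 251 in the double KO with no overlap, whereas WT replicate 2 stands apart at 64.9 CPM for Id1 and 222 for Id3.

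Loss of Dmrt3 alone left all 4 transcripts without a call. By edgeR's quasi-likelihood test with Benjamini-Hochberg adjustment over all genes, 0 of 4 members passed at an adjusted p under 0.05, where 0.0123% of tested genes did, and 0 of 4 had an unadjusted p under 0.05 (7.16% of genes did). DESeq2 also called 0 of 4. The log2 fold change was 0.20 ± 0.33 (SE) for Id1, 0.28 ± 0.16 for Id2, 0.10 ± 0.39 for Id3 and -0.19 ± 0.10 for Id4, with adjusted p from 0.650 to 0.912. The estimate for Id3 changed sign when WT replicate 1 or 4 was left out, to -0.13 and -0.10. A miss of the threshold with errors of this size does not show that the levels were alike.

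Loss of Dmrt5 alone lowered Id4. The edgeR log2 fold change of Id4 against WT was -0.46 ± 0.10 (SE), with an adjusted p of 0.0330, and it was the only 1 of the 4 members called; 0.69% of tested genes were called lower in this comparison. Id4 was also the only member whose Dmrt5 KO libraries were all below the WT libraries, which held for 4.34% of genes. Id1 at -0.45 ± 0.35 (adjusted p = 0.677) and Id3 at -0.64 ± 0.41 (adjusted p = 0.601) had estimates of similar size but errors several times wider, and Id2 was at 0.00 ± 0.16 (adjusted p = 0.995). The call on Id4 was lost when any 1 of the 8 libraries was left out, with adjusted p from 0.0562 to 0.124 and log2 fold changes from -0.51 to -0.44. It was kept without WT replicate 2 and double KO replicate 5 together (-0.44, adjusted p = 0.0285).

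Loss of both genes lowered Id4 and Id3 relative to WT. By edgeR, Id4 had a log2 fold change of -0.87 ± 0.10 (SE), a 1.83-fold lower level, with an adjusted p of 1.77e-05. Id3 had -1.47 ± 0.39, a 2.76-fold lower level, with an adjusted p of 0.0321. These 2 of 4 members stand beside 3.81% of tested genes called lower. Id1 at -0.77 ± 0.33 (adjusted p = 0.223) and Id2 at -0.31 ± 0.15 (adjusted p = 0.315) were not called. The median log2 fold change of the 4 members was -0.82, against 0.01 for all tested genes. Id4 was the only member with all double KO values below all WT values, as for 3.4% of genes.

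The 2 calls differed in how much they rested on single libraries. Id4 kept its call in all 19 alternatives run, with log2 fold changes from -0.90 to -0.81. Without WT replicate 2, Id3 was at -0.87 with an adjusted p of 0.178. Without WT replicate 2 and double KO replicate 5 it was at -0.66 (adjusted p = 0.116), and Id4 was at -0.87 (adjusted p = 8.42e-05). Leaving out WT replicate 3, double KO replicate 1 or double KO replicate 2 also ended the call on Id3, with adjusted p of 0.0585, 0.0642 and 0.0853.

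Set against the Dmrt3 KO, the double KO had lower Id4, Id3 and Id2. By edgeR the log2 fold change of Id4 was -0.68 ± 0.09 (SE, adjusted p = 0.000156). That of Id3 was -1.57 ± 0.38 (adjusted p = 0.0240) and that of Id2 was -0.59 ± 0.15 (adjusted p = 0.0301). These 3 of 4 members stand beside 1.96% of tested genes called lower. Id1 was at -0.97 ± 0.32 with an adjusted p of 0.114. Id4 and Id3 did not overlap between the groups, as held in the lower direction for 2.51% of genes, while Id2 and Id1 overlapped. Without WT replicate 2 and double KO replicate 5, Id3 was at -1.35 (adjusted p = 0.00302) and Id2 at -0.49 (adjusted p = 0.0470), where 2.08% of genes were called lower. Both calls rested on single libraries. That on Id3 was lost without Dmrt3 KO replicate 1, 3 or 5 or double KO replicate 1 or 2, each left out alone, with log2 fold changes from -1.58 to -1.48 and adjusted p from 0.0514 to 0.0685. That on Id2 was lost without Dmrt3 KO replicate 2, 3 or 5 or double KO replicate 1, 2 or 5, with log2 fold changes from -0.59 to -0.49 and adjusted p from 0.0693 to 0.0834.

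Against the Dmrt5 KO, the double KO showed no call among the 4 by edgeR, where 0.32% of tested genes were called lower. Id4 was at -0.41 ± 0.10 (SE, adjusted p = 0.10), Id3 at -0.83 ± 0.39 (adjusted p = 0.997), and Id1 and Id2 both at -0.32. At an unadjusted p under 0.05, 2 of the 4 passed, Id3 and Id4, where 4.71% of genes did. DESeq2 called Id4 (adjusted p = 0.000857), 1 of 99 genes it called lower here. All 5 double KO values of Id4 were nevertheless below all 4 Dmrt5 KO values, which 1.37% of tested genes also showed.

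The interaction of the 2 losses, the difference between the effect of Dmrt5 loss with and without Dmrt3, was called for 0 of 4 members by edgeR and by DESeq2, where edgeR called 0.142% of tested genes. Its log2 value was -0.52 ± 0.47 (SE) for Id1, -0.59 ± 0.22 for Id2, -0.93 ± 0.55 for Id3 and -0.22 ± 0.14 for Id4, with adjusted p from 0.529 to 0.668. Id2 was the only 1 with an unadjusted p under 0.05, as held for 9.22% of genes. A step from single to double loss that exceeds the sum of the single steps was thus not detectable for any Id gene with these libraries. Comparisons with WT share the WT libraries, and those of the double KO share the double KO libraries, so their values are not independent of each other.

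**Figure D2:**
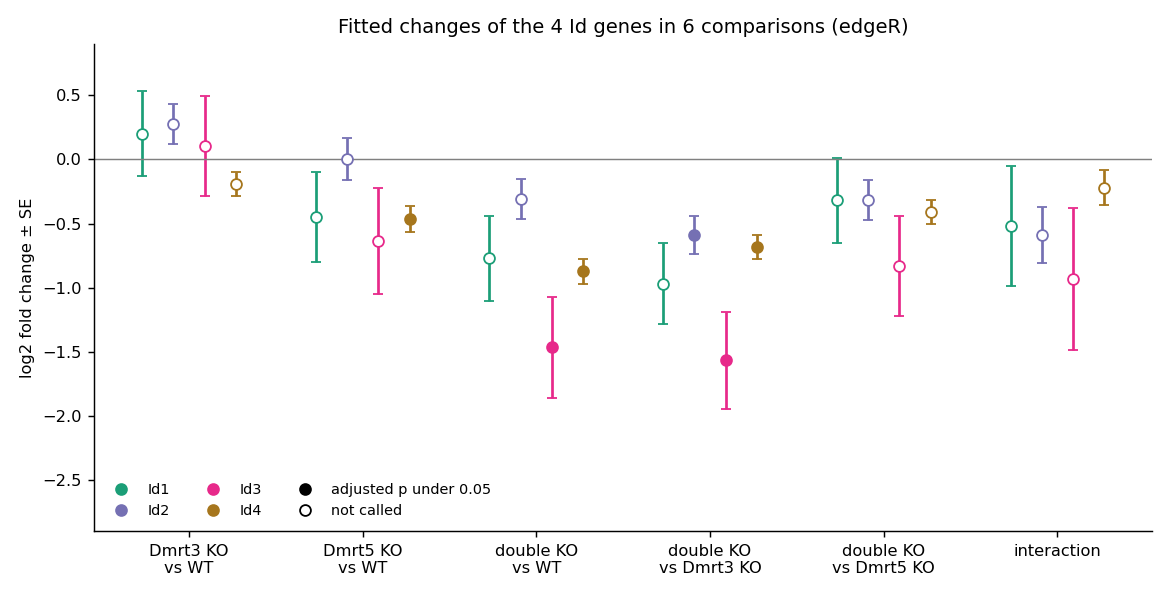
Fitted log2 fold changes of the 4 Id genes (points) with their SE (bars) in 5 comparisons of genotypes and in the interaction of Dmrt3 and Dmrt5 loss; filled points have an adjusted p under 0.05. All 6 filled points lie below 0, and the bars of Id4 are the shortest in every comparison.

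Levels were compared between members per kilobase of merged exons. In WT, Id4 averaged 110 CPM per kb, Id3 61.7, Id1 31.7 and Id2 20.1. Among 16067 tested genes with a length, that placed Id4 at the 98.08th percentile, Id3 at the 95.19th, Id1 at the 88.44th and Id2 at the 80.9th. Double KO levels were 60.3 CPM per kb for Id4, 22.3 for Id3, 18.6 for Id1 and 16.2 for Id2. The order Id4, Id3, Id1, Id2 held in 3 of 4 WT libraries, 5 of 5 Dmrt3 KO libraries and 3 of 4 Dmrt5 KO libraries, but in 1 of 5 double KO libraries. WT replicate 2 was the only library of the 18 in which Id3 exceeded Id4.

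The summed level of the 4 transcripts was 224 ± 67.7 CPM per kb in WT (SD, n = 4) and 224 ± 17.3 in the Dmrt3 KO (SD, n = 5). It was 163 ± 11.4 in the Dmrt5 KO (SD, n = 4) and 117 ± 20.5 in the double KO (SD, n = 5). The lowest WT library had 174.0 and the highest double KO library 142. Id4 made up 51.9 ± 11.4% of the sum in WT (SD, n = 4) and 52.5 ± 10.4% in the double KO (SD, n = 5). The share of Id3 was 25.4 ± 9.64% in WT and 18.2 ± 6.19% in the double KO, ranges that overlap, and the share of Id2 was 9.29 ± 1.58% in WT and 13.6 ± 1.30% in the double KO, ranges that do not.

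**Figure D3:**
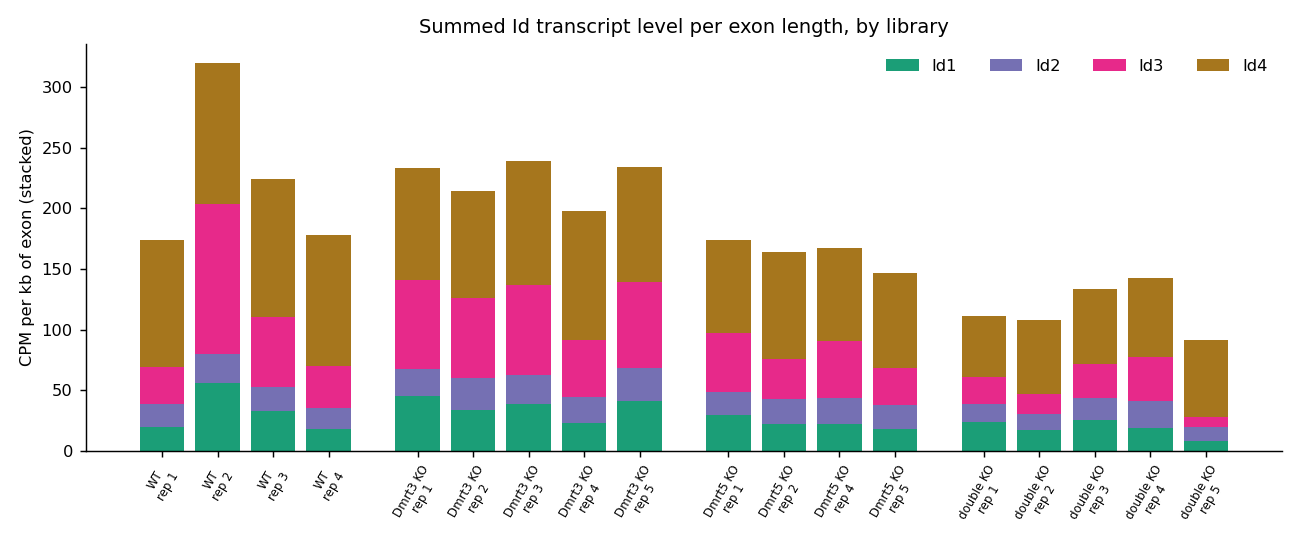
Summed level of Id1, Id2, Id3 and Id4 in CPM per kb of merged exons, stacked for each of the 18 libraries (linear axis from 0). Sums ran from 174.0 to 319 in WT and from 91.4 to 142 in the double KO, and Id4 is the largest segment in every library but WT replicate 2.

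The members did not vary together as 1 block within genotypes. Over the 18 libraries, as deviations from their genotype means in log2 CPM, Id1 and Id3 had r = 0.91 and rho = 0.87 (adjusted p = 0.00219 and 0.00114, permutation within genotypes, 6 pairs). Without the 2 libraries farthest from the median, r was 0.82. Id2 and Id3 had r = 0.79 and rho = 0.65 (adjusted p = 0.00219 and 0.0376), with r = 0.66 without 2 libraries. Id4 had r from -0.15 to 0.10 with the other 3. The test for Id1 with Id2 missed the threshold (r = 0.58, adjusted p = 0.0856, rho = 0.48, adjusted p = 0.189, permutation).

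The spread of Id1 went with the length slope of the libraries. Within genotypes the correlation was r = -0.93 and rho = -0.87 over 18 libraries (adjusted p = 0.0018 and 0.00528, permutation, 12 relations with library measures chosen after the measures were seen). The slope is computed from the levels of genes by length, and Id1 is short. A negative relation thus follows in part from how the slope is built, and its p-values are no separate support for it. The 2 libraries farthest from the median slope within genotypes were double KO replicate 5 and WT replicate 4. With those 2 left out and WT replicate 2 kept, the correlation for Id1 was r = -0.89. For Id3 it was r = -0.79 and rho = -0.67 (adjusted p = 0.0502 and 0.0945, permutation), for Id2 r = -0.49 and rho = -0.33 (adjusted p = 0.223 and 0.545, permutation) and for Id4 r = 0.17 and rho = 0.15 (adjusted p = 0.620 and 0.663, permutation). With the slope as a covariate in edgeR, Id1 in the double KO against WT was at -0.54 with an adjusted p of 0.0118, so it passed. Id3 was at -1.17 (adjusted p = 0.00504) and Id4 kept its call. These 3 of 4 members stand beside 9.74% of tested genes called lower in that fit.

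**Figure D4:**
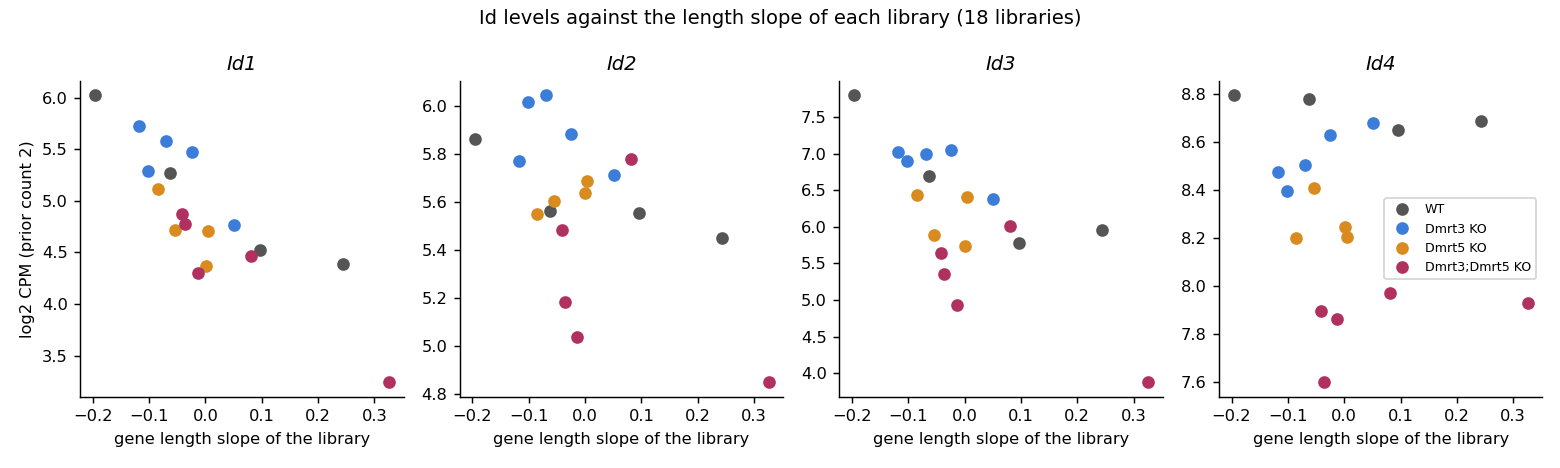
Level of each Id gene (log2 CPM with a prior count of 2) against the length slope of the library, for 18 libraries coloured by genotype. Id1 and Id3 run downward from WT replicate 2 at the left (-0.196) to double KO replicate 5 at the right (0.326). For Id4 the 5 double KO libraries lie below all others. Their slopes run from -0.0413 to 0.326, and the libraries of lower slope are all of other genotypes.

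Id1 and Id3 are also transcribed in vessels and meninges, so markers of those cells are given beside their results. The 12 endothelial markers, among them Pecam1, Cdh5 and Kdr, summed to 350 to 426 CPM in WT and 180 to 441 in the double KO. The 12 mesenchymal and mural markers, among them Col1a1, Col3a1 and Pdgfrb, summed to 812 to 2506 CPM in WT and 74.7 to 2145 in the double KO. No marker of either list had a count of 0 in any library. For the double KO against WT, edgeR called 0 of 12 in each list, with 6 and 1 at an unadjusted p under 0.05 (17.7% of all genes). DESeq2 called 1 of 12 endothelial markers lower, where it called 785 genes lower, and 0 of 12 mesenchymal ones. The median log2 fold changes were -0.57 and -1.04. Double KO replicate 4 was highest of its group for both lists, for Id2, for Id3 and for Id4, and replicate 5 was lowest for both lists, for Id1, for Id2 and for Id3. In WT, replicate 4 was highest for both lists but lowest for Id1 and Id2. The highest for both lists was replicate 5 in the Dmrt3 KO and replicate 4 in the Dmrt5 KO. Each was also highest of its group for Id2, but not for Id1, Id3 or Id4.

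With the mesenchymal score as a covariate, Id3 in the double KO against WT was at -1.0 (edgeR, adjusted p = 0.364), and with the endothelial score at -1.01 (adjusted p = 0.401). Id4 kept its call under both. Neither score correlated with any Id gene within genotypes at an adjusted p under 0.05 (permutation, n = 18, the same 12 relations). The mesenchymal score had r = 0.66 with Id2 and 0.56 with Id3, and the endothelial score 0.61 and 0.49. Without double KO replicates 4 and 5 these were 0.03 and 0.07, and -0.01 and 0.06. The part of these cells in the results on Id1, Id2 and Id3 was not tested beyond these values. In bulk tissue, fewer cells of a type and less RNA per cell cannot be told apart.

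Genes with a pattern most like each member were found by Pearson's r over the 18 libraries among 12795 genes whose log2 CPM averaged 1 or more. They are a description, since the libraries share their length slope and genotype. For Id4 they were Emx2os and Lmx1a (both r = 0.96) and Lhx2 and Emx2 (both r = 0.95). Lhx2 and Emx2 encode transcription factors of the cortical primordium and Lmx1a one of the cortical hem. For Id3 the leading gene was Atoh8 (r = 0.96), for Id1 Igfbp2 (r = 0.98), which encodes a binding protein of insulin-like growth factors, and for Id2 St3gal6 (r = 0.92).

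The 4 genes named for Id4 were chosen on these same levels, so their changes are given as values without a test. In the double KO against WT the edgeR log2 fold change was -1.73 ± 0.15 (SE) for Emx2os, -3.00 ± 0.24 for Lmx1a, -1.56 ± 0.11 for Lhx2 and -1.62 ± 0.17 for Emx2, against -0.87 for Id4. In the Dmrt5 KO against WT they were -0.81, -1.90, -1.09 and -0.80 in the same order, against -0.46 for Id4. When genotype means were taken out, other genes led for Id4: Zfp825 (r = 0.85), Slc4a1 (r = 0.83) and D030055H07Rik and Vrk2 (both r = 0.81). For Id1 Igfbp2 still led (r = 0.98).

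E proteins, the direct partners of Id proteins, were not called. Of 3 tested (Tcf3, Tcf4 and Tcf12), edgeR and DESeq2 called 0 in each of the 6 comparisons. In the double KO against WT, 1 had an unadjusted p under 0.05, beside 17.7% of all genes. Tcf3, which encodes the E2A proteins, averaged 576 ± 52.9 CPM in WT (SD, n = 4), 593 ± 68.7 in the Dmrt3 KO (SD, n = 5), 564 ± 42.4 in the Dmrt5 KO (SD, n = 4) and 532 ± 97.1 in the double KO (SD, n = 5). Per kb, its WT level was 143 CPM, next to 110 for Id4. Tcf4 was at a log2 fold change of -0.59 ± 0.20 (SE) in the double KO against WT (edgeR, adjusted p = 0.107), and Tcf12 at 0.06 ± 0.24 (adjusted p = 0.962). In the Dmrt5 KO against WT, Tcf4 was at -0.73 ± 0.22 (unadjusted p = 0.00356, edgeR adjusted p = 0.144). Tcf12 had an unadjusted p under 0.05 in the double KO against the Dmrt3 KO (0.49 ± 0.23, edgeR adjusted p = 0.287) and for the interaction (0.83 ± 0.34, adjusted p = 0.529). Without WT replicate 2 and double KO replicate 5, edgeR called Tcf4 lower against WT in the Dmrt5 KO (-0.86, adjusted p = 0.0275) and in the double KO (-0.82, adjusted p = 0.0202), where 3.31% and 6.36% of genes were called lower.

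The bHLH factors whose partners Id proteins bind changed in both directions. Of 16 proneural and neuronal factors, 14 were tested. Against WT, 3 rose in the Dmrt5 KO and 0 fell by edgeR, beside 0.339% of tested genes that rose. DESeq2 called 4 higher and 1 lower there, where it called 210 genes higher and 228 lower. Without WT replicate 2 and double KO replicate 5, edgeR called 5 higher and 2 lower, where 3.31% of genes were called lower. The share of genes called higher in that fit is not given here, so the 5 have no background beside them. With both genes lost, 4 rose and 7 fell against WT, beside 2.42% and 3.81% of all tested genes. By edgeR, Olig2 rose by 1.32 ± 0.27 (SE, log2, adjusted p = 0.00626). Neurog2, the main proneural factor of the dorsal forebrain, fell by 2.01 ± 0.16 (adjusted p = 5.18e-07). Nhlh1 fell by 2.45 ± 0.15 and Neurod1 by 2.2 ± 0.19, both neuronal factors (adjusted p = 2.84e-08 and 1.76e-06). The median of the 14 was -1.07, against 0.01 for all genes. Markers of the subpallium, the ventral forebrain, moved beside them. In the double KO against WT, 13 of 14 were called higher (median 1.65), beside 2.42% of all tested genes. Without WT replicate 2 and double KO replicate 5, 13 of these markers were called higher, a count given without the share of all genes called higher. Their part in the result was not tested.

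Of the 6 Hes and Hey repressors, bHLH proteins that act downstream of Notch, Hey1 fell in the Dmrt5 KO against WT by 0.67 ± 0.11 on the log2 scale (edgeR, adjusted p = 0.00733). It was the only 1 of the 6 called there, beside 0.69% of all genes called lower. DESeq2 called 2 of the 6 lower, where it called 228 genes lower. Without WT replicate 2 and double KO replicate 5, edgeR also called 2 lower, beside 3.31% of genes. Against WT the double KO had 2 of 6 lower, beside 3.81% of all genes, where Hey1 fell by 0.91 ± 0.11 (adjusted p = 5.12e-05) and Hey2 fell by 1.94 ± 0.38 (adjusted p = 0.00413). Hey1 averaged 97.1 ± 5.82 CPM in WT (SD, n = 4) and 51.8 ± 7.90 in the double KO (SD, n = 5), ranges that did not overlap, as for 3.4% of genes in this direction. Hes1 was at -0.49 ± 0.18 (adjusted p = 0.127) and Hes5 at 0.36 ± 0.32 (adjusted p = 0.688).

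Among Bmp and Gdf genes, 10 of 12 were tested, with Bmp1 encoding a protease rather than a ligand. In the double KO against WT, 5 fell, beside 3.81% of all tested genes. By edgeR, Gdf5 fell by 2.07 ± 0.32 (SE, log2, adjusted p = 0.000591), Bmp6 by 2.76 ± 0.51 (adjusted p = 0.00274), Bmp7 by 1.60 ± 0.34 (adjusted p = 0.00766) and Bmp2 by 1.94 ± 0.45 (adjusted p = 0.0129). Bmp5, the fifth, fell by 2.12 ± 0.58 (adjusted p = 0.0356) and is named though it lies outside the rule for named genes. Gdf10 rose by 1.01 ± 0.25 (adjusted p = 0.0208), a call that was lost without WT replicate 2 and double KO replicate 5, while 5 ligands were called lower there too. Bmp4 was at -1.23 ± 0.74 (adjusted p = 0.442). Bmp7 was the most abundant of those called, at 45.2 ± 4.80 CPM in WT (SD, n = 4) and 14.9 ± 9.34 in the double KO (SD, n = 5).

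The cortical hem and the choroid plexus, midline tissues known to make Bmp ligands, were followed by their markers. In the double KO against WT, edgeR called 7 of 9 hem markers lower (median -2.71) and 5 of 7 tested choroid plexus markers lower (median -3.54). Of all tested genes, 3.81% were called lower. The same numbers, 7 and 5, were called lower without WT replicate 2 and double KO replicate 5, where 6.36% of genes were called lower. Hem markers summed to 293 to 398 CPM in WT and 61.2 to 130 in the double KO, and choroid plexus markers to 186 to 396 and 71.7 to 147, with no overlap for either sum. Single genes with all double KO values below all WT values made up 3.4% of those tested. Their part in the results on Bmp genes, on Smads and on Id4 was not tested.

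Downstream of the ligands few genes passed. By edgeR, 0 of 8 receptors were called in each of the 6 comparisons, with 1 at an unadjusted p under 0.05 in the double KO against WT and 4 against the Dmrt3 KO, where 17.4% of all genes had one. DESeq2 called 0 and 1 receptors in these, the 1 being lower against the Dmrt3 KO, where it called 471 genes lower. For the interaction it called 1 receptor higher, where it called 66 genes higher. Without WT replicate 2 and double KO replicate 5, edgeR called 1 of 8 receptors lower against WT in the Dmrt3 KO, in the Dmrt5 KO and in the double KO. In that fit 3.31% of genes were called lower in the Dmrt5 KO and 6.36% in the double KO. That fit also called 1 receptor higher for the interaction. How many genes it called in either direction for the Dmrt3 KO and for the interaction is given in the closing section. Among 4 Smads, Smad9, a receptor-regulated Smad of the Bmp branch, fell by 2.77 ± 0.58 (adjusted p = 0.00631) in the double KO against WT and by 2.75 in the Dmrt5 KO (adjusted p = 0.0403), from a low WT level of 1.56 ± 0.818 CPM (SD, n = 4). It was the only 1 of the 4 called in each, beside 3.81% and 0.69% of all genes called lower. Without WT replicate 2 and double KO replicate 5, 2 of the 4 Smads were called lower in the double KO and 1 in the Dmrt5 KO. Smad6, an inhibitory Smad induced by Bmp signalling, was 1 of 5 other targets called, falling by 1.34 ± 0.37 in the double KO against WT (adjusted p = 0.0366); without WT replicate 2 and double KO replicate 5, 0 of 5 were called. Msx1 was at -1.41 ± 0.96 (adjusted p = 0.520). Of 9 secreted antagonists, 1 passed in the double KO against the Dmrt3 KO (1.74% of genes rose there). It was Chrdl1, which rose by 0.85 ± 0.20 (edgeR, adjusted p = 0.0223). Without WT replicate 2 and double KO replicate 5 this call was lost, with 0 of 9 called higher. Against WT, the double KO had 0 of 9 called in the main fit and 1 of 9 called higher without these 2 libraries. The share of all genes called higher in that fit is not given here.

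**Figure D5:**
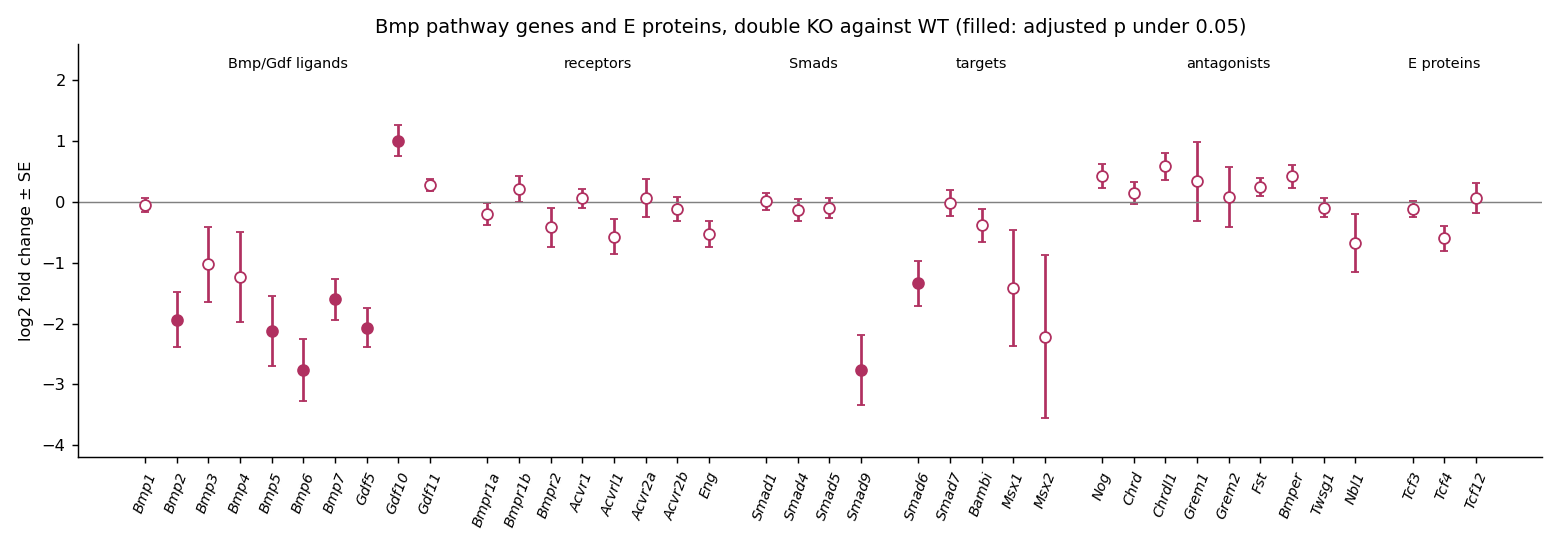
Log2 fold changes with SE (bars) of Bmp and Gdf genes, receptors, Smads, targets, antagonists and E proteins in the double KO against WT; filled points have an adjusted p under 0.05. The filled points are 5 Bmp and Gdf genes, Smad9 and Smad6 below 0 and Gdf10 above it, and all 8 receptors and 3 E proteins are open.

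The promoter of Id4 is shown because Id4 had the best supported change. RefSeq (GRCm38.p6) gives the 250 bases before its start at chr13:48260866-48261115 on the plus strand, 75.6% G and C against a median of 52.4% over all promoters in the table. The window lies within the minus-strand genes A330033J07Rik and Gm49291 but holds none of their exons. Capitals mark matches on either strand to 4 motifs: ACAATGT, the core of the DMRT binding site, GGCGCC and CAGAC, which Smad proteins bind, and the CCAAT box.
Id4 promoter: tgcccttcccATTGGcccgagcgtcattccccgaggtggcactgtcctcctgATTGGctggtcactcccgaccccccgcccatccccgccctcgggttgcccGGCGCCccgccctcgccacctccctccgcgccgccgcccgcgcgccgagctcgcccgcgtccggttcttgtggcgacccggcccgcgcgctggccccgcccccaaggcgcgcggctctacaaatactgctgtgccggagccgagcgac
The window held 0 matches to ACAATGT, which 2.56% of 32851 RefSeq promoters of this length contain, and 0 to CAGAC (42.2%). It held 1 match to GGCGCC (9.59%) and 2 to CCAAT (33.8%). The windows of Id2 and Id3 also held 0 matches to ACAATGT, and they are not printed because they overlap untranslated exon bases of longer transcripts. A match or its absence describes these letters only.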

How the data were processed

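RNA sequencing counts of 18 libraries were analysed. The authors deposited raw counts for Ensembl genes, 1 file a library, that were not normalised. Tools listed in the submitters' processing notes include featureCounts 1.4.6-p1 and the aligner STAR 2.3.0e, with build mm10, and the annotation release and the strand setting are not stated there. Symbols and exon lengths came from GENCODE M21. Counts were fitted with edgeR 4.0.16 in R 4.3.3 (TMM scaling, filterByExpr, quasi-likelihood F test, 1 mean per genotype over all 18 libraries), with Benjamini-Hochberg adjustment over 16236 genes and a threshold of 0.05. CPM uses the TMM library sizes. Alternatives were DESeq2 1.42.0, RLE scaling, no filter, only the genotypes compared, a replicate block, covariates (length slope, mesenchymal score, endothelial score, inferred sex) and leaving out each library; a fit without WT replicate 2 and double KO replicate 5 was added after seeing the data. A marker score is the mean log2 CPM of the list.

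The members and gene lists were chosen with earlier results of these data known. Named genes are the Id genes, Dmrt3, Dmrta2, the E proteins, up to 4 tested genes of each other list with the lowest adjusted p in a comparison, and the 4 genes most correlated with each Id gene. For the double KO against WT, Olig2, Hes5, Bmp4, Bmp5 and Gdf10 were also named, chosen after their values were seen. Correlations used 100000 permutations within genotypes, for which the smallest possible p is 1e-05. Dixon's test was run on each gene and genotype group, and the fit was tested on simulated counts. Each count carries its own sampling error; totals of 19602718 to 33072896 gave at least 240 counts for every Id gene in every library.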

Additional observations from a re-analysis of the deposited data

Results flagged for a closer look

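Over the targeted genes, the Id genes and the E proteins in every genotype, 5 groups held a library that stood apart from the others of its group by Dixon's test at the 95% level; chance flags about 1 in 20 groups. Id3 in Dmrt3 KO replicate 4 was at 83.2 CPM, with the nearest other library at 119. Dmrta2 in Dmrt5 KO replicate 1 was at 25.1 CPM, with the nearest other at 6.94. Tcf12 in double KO replicate 5, the library with the highest length slope, was at 370.4 CPM, with the nearest other at 207. Tcf3 in Dmrt5 KO replicate 2 was at 501 CPM against 583, and Tcf4 in Dmrt3 KO replicate 2 at 329 CPM against 238.

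The effect of Dmrt5 loss differed with and without Dmrt3 for 6 of 14 tested bHLH factors by the interaction term of edgeR, beside 0.142% of tested genes called. For the 4 with the lowest adjusted p, the log2 interaction was -2.06 for Nhlh1 (adjusted p = 0.000235), -2.05 for Neurog2 (adjusted p = 0.000328), -1.95 for Neurod1 (adjusted p = 0.00286) and -5.16 for Neurod6 (adjusted p = 0.00554). The other two were Neurod2 (-3.76, adjusted p = 0.00595) and Neurog1 (-1.77, adjusted p = 0.0265), named after their values were seen. No Id gene was called for this term.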

How the results depend on the processing

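Of 488 alternative values of the Id log2 fold changes, 436 kept their direction and side of the threshold, 36 lost a call, 6 gained one and 10 changed sign. Id4 in the double KO kept its calls against WT (19 alternatives) and against the Dmrt3 KO (20). Id4 in the Dmrt5 KO against WT lost its call with no filter (-0.47, adjusted p = 0.0730), with only 2 genotypes fitted (-0.45, adjusted p = 0.111) and without each single library (-0.51 to -0.44). Id3 in the double KO against WT lost it with 2 genotypes fitted (-1.46, in edgeR with an adjusted p of 0.228), with the mesenchymal score (-1.0), with the endothelial score (-1.01) and without both libraries of extreme slope (-0.66); without single libraries it was at -1.70 to -0.87. Against the Dmrt3 KO, Id3 lost its call with the 2 scores (-1.10 and -1.15), and was at -1.80 to -1.35 without single libraries, 5 of which ended the call. Id2 lost it there with no filter (-0.55), with 2 genotypes fitted (-0.59) and with the scores (-0.36 and -0.38), and was at -0.74 to -0.49 without single libraries, 6 of which ended it. Calls were gained with the length slope by Id1 against WT (-0.54) and the Dmrt3 KO (-0.58) and by Id4 against the Dmrt5 KO (-0.42), with DESeq2 by Id1 against the Dmrt3 KO (-0.96) and Id4 against the Dmrt5 KO (-0.41), and by Id2 against WT without double KO replicate 4 (-0.46, within -0.46 to -0.22). Signs changed for 2 uncalled values near 0: Id2 in the Dmrt5 KO against WT (no filter -0.0029, length slope -0.035, sex -0.0024, single libraries left out -0.054 to 0.10) and Id3 in the Dmrt3 KO against WT (length slope -0.0063, single libraries left out -0.13 to 0.70). The cause was not tested.

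Counts of called genes moved more. Main counts were 2 for the Dmrt3 KO, 167 for the Dmrt5 KO and 1012 for the double KO against WT, 600 and 54 for the double KO against the Dmrt3 KO and Dmrt5 KO, and 23 for the interaction. In that order, leaving out single libraries gave 2 to 6, 54 to 225, 727 to 2006, 396 to 1437, 34 to 79 and 15 to 33. With 2 genotypes fitted they were 89, 368, 358 and 21 from the Dmrt5 KO onward. The length slope gave 89, 544 and 3170 against WT and 121 against the Dmrt5 KO. The mesenchymal score gave 400 and 258, and the endothelial score 398 and 292, for the double KO against WT and the Dmrt3 KO. Sex gave 255 for the Dmrt5 KO. DESeq2 gave 54 and 438 for the Dmrt3 KO and Dmrt5 KO, 976 and 112 for the double KO against them, and 127 for the interaction. Without both libraries of extreme slope they were 538 and 667 for the single KOs and 77 for the interaction. Per kb of the longest transcript, Id2 was at 24.8, 30.1 and 24.9 CPM in WT, Dmrt3 KO and Dmrt5 KO, and Id3 at 92.7 and 55.5 in Dmrt3 KO and Dmrt5 KO.

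Whether replicate numbers pair the samples was not tested. Same-numbered libraries of different genotypes had a higher mean correlation of deviations, 0.163 (-0.357 to 0.703), than those of different numbers, -0.0394. The correlation was over 0.1 in 15 of 24 same-numbered pairs and in 35 of 97 others. Of the 18 libraries, 4 had their closest library of another genotype under their own number. With the replicate block the Dmrt5 KO had 380 genes called against WT, and Id3 in the double KO against WT was at -1.33 (adjusted p = 0.0736). The block changed no other call of an Id gene. For Id1 and Id3 the wide spread between libraries limits what could be detected.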
